A study of Homo sapiens with 23 samples.

Results

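Eph receptors and ephrins were followed as a set of 10 genes, 6 receptors (EPHA1, EPHA2, EPHA4, EPHA7, EPHB2 and EPHB4) and 4 ephrins (EFNA1, EFNA5, EFNB1 and EFNB2), taken by symbol from the 21463 gene rows of the authors' deposited table. All 10 symbols had a row and a q-value in each of the 4 comparisons of that table. The cells were PC-3, an established human prostate cancer line, transduced with a lentivirus that carries PARG cDNA with a cleavable mClover3 behind the doxycycline-inducible TetOne promoter. PARG encodes poly(ADP-ribose) glycohydrolase, which breaks down the ADP-ribose polymers that cells attach to proteins. Each of the 2 lines used, I4 and H6, is a single clone of these cells, and the untreated wells carried the construct too.

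The groups with doxycycline received 500 ng/ml for 72 h, and those without it were grown for the same time. In experiment N the cells were at passage 5 and the libraries kept reads of both strands. In experiment B the cells were at passage 7, and the libraries were strand-specific and came from another centre. Poly(A) RNA from 3 wells was sequenced in each of the 8 groups, except untreated H6 of experiment B, which had 2 wells. The comparison in each clone and experiment asks which transcripts differ when PARG is induced. PC-3 cells lacking the construct are not analysed here, so doxycycline itself and PARG cannot be told apart.

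Eph proteins are the largest family of receptor tyrosine kinases, and ephrins are their ligands on the surface of neighbouring cells. Ephrin-A proteins are held in the membrane by a lipid anchor and bind mainly EphA receptors, whereas ephrin-B proteins cross the membrane and bind mainly EphB receptors, and EPHA4 binds both classes. Contact between cells can signal into the receptor cell and back into the ephrin cell, and it is known for guiding axons, sorting cells into compartments, shaping blood vessels and changing the adhesion and spreading of epithelial and cancer cells.

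The start regions of EPHA7, EFNB2 and EPHB2 are shown because these genes were called in all 4 comparisons, EPHA7 and EFNB2 higher and EPHB2 lower with doxycycline. Each sequence runs from 250 bases before to 50 bases after the transcript start in RefSeq (GRCh38.p14) that lies nearest to the start of the gene in GENCODE v29, and capitals mark GC boxes, the letters GGGCGG on either strand.
EPHA7, chr6:93419510-93419809, minus strand: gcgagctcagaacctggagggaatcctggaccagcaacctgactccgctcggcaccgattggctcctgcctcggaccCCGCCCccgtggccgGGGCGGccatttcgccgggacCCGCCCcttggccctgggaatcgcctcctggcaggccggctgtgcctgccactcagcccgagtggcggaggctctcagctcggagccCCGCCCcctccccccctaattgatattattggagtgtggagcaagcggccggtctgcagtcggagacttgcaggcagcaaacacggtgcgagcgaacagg
EFNB2, chr13:106535613-106535912, minus strand: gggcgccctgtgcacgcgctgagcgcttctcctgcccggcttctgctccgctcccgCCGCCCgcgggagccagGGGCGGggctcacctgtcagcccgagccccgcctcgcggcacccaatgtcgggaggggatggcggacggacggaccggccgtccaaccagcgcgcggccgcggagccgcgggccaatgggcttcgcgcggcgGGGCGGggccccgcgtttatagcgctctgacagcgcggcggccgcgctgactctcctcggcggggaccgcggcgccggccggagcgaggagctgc
EPHB2, chr1:22710589-22710888, plus strand: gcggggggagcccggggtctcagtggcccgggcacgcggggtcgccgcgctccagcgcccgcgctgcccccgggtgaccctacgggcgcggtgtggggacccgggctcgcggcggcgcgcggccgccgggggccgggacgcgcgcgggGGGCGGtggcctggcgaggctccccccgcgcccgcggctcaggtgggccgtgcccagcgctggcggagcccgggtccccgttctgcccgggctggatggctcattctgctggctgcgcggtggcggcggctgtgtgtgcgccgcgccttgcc
The window of EPHA7 held 4 GC boxes, that of EFNB2 3 and that of EPHB2 1. All 10 members had at least 1 GC box in their window, and 45.0% of the 35116 RefSeq windows of the same length did. Guanine and cytosine made up 68.3% of the window of EPHA7, 78.7% of that of EFNB2 and 83.0% of that of EPHB2, against a median of 58.7% over all windows. The letters of AP-1 (TGANTCA, in 7.71% of all windows), of the cyclic AMP response element (TGACGTCA, 1.85%), of the E box CACGTG (7.26%), of TEAD factors (GGAATG, 14.03%) and of NF-kB (11.3%) occurred in none of the 3 windows, on either strand. Of the other members, EPHA2 had the cyclic AMP element and the TEAD letters. These are matches of letters in a short window and say nothing of which factors act there.

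The table gives for each comparison the higher of the 2 group means, a signed fold and a q-value. Levels are taken as RPKM, reads scaled to exon length and library size, so they can be compared between genes; the table names no unit, and the scale was inferred from its values. The level of the other group was taken as the higher mean divided by the size of the fold. No value per library was used here, so levels and folds have no SD, and the authors' q-value, under 0.05 for a call, is the only measure of error. Depth was estimated from the level that a single read gives. It was about 37.4 M and 37.0 M reads per library in I4 and H6 of experiment N, and about 22.2 M and 23.2 M in experiment B. For PARG itself, the authors' deposited table lists folds of 1.35 (N) and 1.402 (B) for I4, and of 2.15 (N) and 1.99 (B) for H6. The table does not name the direction of its folds, so PARG was taken as higher with doxycycline, and every direction given below rests on this. KRT8, KRT18 and KRT19, keratins of simple epithelia, stood at 25.1 to 356 RPKM in the authors' deposited table, while the prostate secretory gene KLK3 stood at 0.00695 RPKM or less, KLK2 was listed at 0, and the blood cell gene PTPRC was at 0.0515 RPKM or less. The epithelial cadherin gene CDH1 was at 0.332 to 0.394 RPKM in the authors' deposited table, so this marker was low. KRT8 and KRT18 were called higher with doxycycline in all 4 comparisons of the authors' deposited table, by a factor of 1.28 to 1.33 for KRT8 and 1.20 to 1.31 for KRT18. Of all genes of at least 1 RPKM, 2.27% were called higher in all 4. Each of the other epithelial markers was called higher in 1 comparison only, KRT19 in I4 of experiment B and CDH1 in H6 of experiment N. The summed level of the 5 epithelial markers was 328 to 527 RPKM with doxycycline, against 271 to 496 RPKM without it, and its part in the results was not tested.

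EPHA7 and EFNB2 rose with doxycycline in all 4 comparisons and EPHB2 fell in all 4. EFNA1 rose in 3, and EPHB4 fell in 1. EPHA1, EPHA2, EPHA4, EFNA5 and EFNB1 were called in none. The 2 members called higher in all 4 were read against a background of 1.73% of the 15063 genes tested in all 4, and the 1 member called lower against 1.97%. Among the 10752 of these genes with a mean level of at least 1 RPKM, 2.27% were called higher and 2.65% lower throughout, and 8 of the 10 members reached that level. Called receptors went in both directions, EPHA7 higher and EPHB2 and EPHB4 lower, while both called ephrins, EFNA1 and EFNB2, were higher. In experiment N the median log2 fold of the 10 was 0.08 for I4 and -0.08 for H6. In experiment B it was 0.05 for I4 and -0.02 for H6. Over the 8 members of at least 1 RPKM the median in I4 of experiment N was -0.03, so its sign depends on the genes at low level. The median of all genes of at least 1 RPKM was between -0.01 and 0.01 in each comparison.

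In I4 of experiment N, 3 members were called higher and 1 lower, where 7.18% of all tested genes were called higher and 8.53% lower. In H6 of experiment N, 3 were called higher and 2 lower, beside 6.57% and 7.07% of all tested genes. In I4 of experiment B, 2 were called higher and 1 lower, beside 7.46% and 6.59%. In H6 of experiment B, 3 were called higher and 1 lower, beside 3.63% and 3.93%. With 10 genes, 1 member is 10% of the set, so counts of 1 or 2 can be set against these shares only coarsely.

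**Figure D1:**
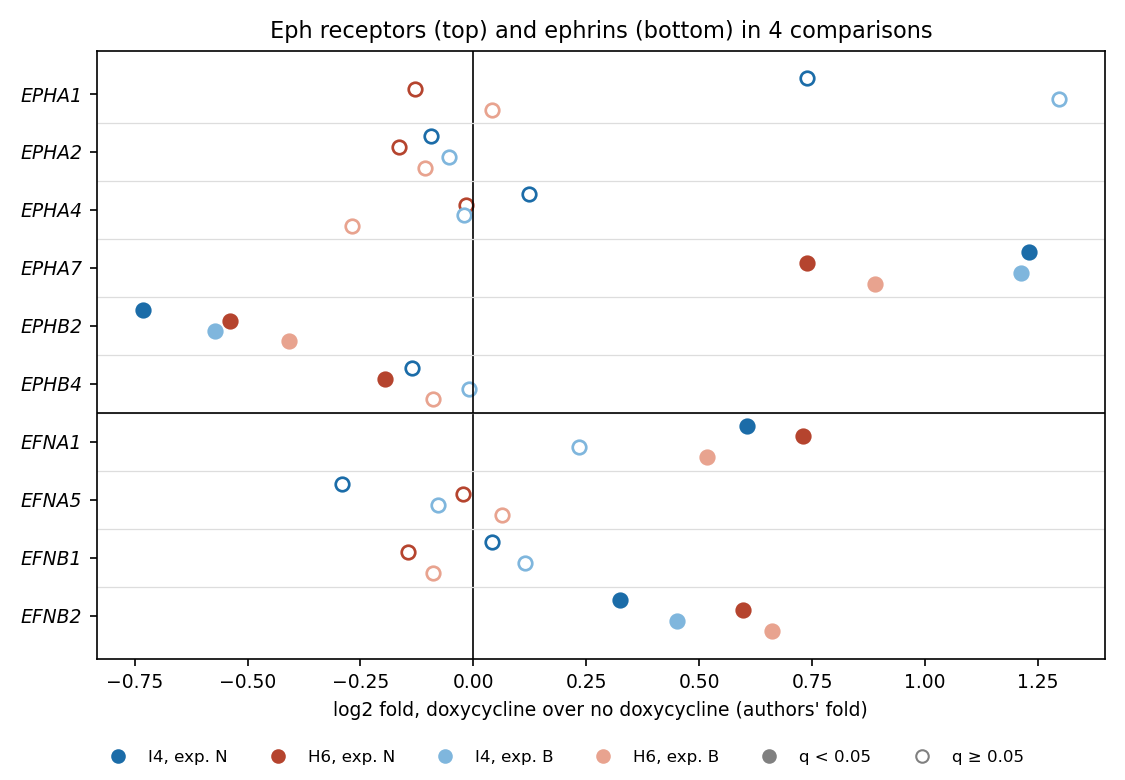
Log2 fold with doxycycline over no doxycycline for each of the 10 genes (x axis), with 1 point for each clone and experiment; filled points have a q-value under 0.05 in the authors' deposited table. EPHA7 lies between 0.74 and 1.23 and EFNB2 between 0.32 and 0.66, both right of 0 in all 4 comparisons, and EPHB2 lies between -0.73 and -0.41.

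EPHA7, a receptor of ephrin-A ligands best known from the developing brain, had the largest called folds of the set in every comparison. Its gene spans bases 93240020 to 93419547 of chromosome 6, minus strand (GRCh38, GENCODE v29). Its level with doxycycline was 1.54 RPKM in I4 and 3.03 RPKM in H6 in experiment N, against 0.658 RPKM in I4 and 1.82 RPKM in H6 without it. In experiment B it was 2.03 RPKM in I4 and 4.29 RPKM in H6 with doxycycline, against 0.875 RPKM in I4 and 2.31 RPKM in H6 without it. Each treated group was thus above its untreated group, but treated I4 stood below untreated H6 in both experiments. The folds in the authors' deposited table were 2.35 and 2.32 in I4 and 1.67 and 1.85 in H6, for experiments N and B, each with a q-value listed as 0. Of the genes of at least 1 RPKM, only 14 in I4 and 60 in H6 had a higher fold in experiment N, and in experiment B these counts were 11 for I4 and 22 for H6. The fold was larger in I4, where PARG rose less, than in H6; this difference was not tested, since it needs values per library.

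EFNB2, a transmembrane ephrin that marks arterial vessels and is the preferred ligand of EPHB4, rose by smaller folds and stood at a higher level. Its gene spans bases 106489731 to 106535662 of chromosome 13, minus strand (GRCh38, GENCODE v29). With doxycycline it stood at 8.99 RPKM in I4 and 10.1 RPKM in H6 in experiment N, against 7.18 RPKM in I4 and 6.71 RPKM in H6 without it. In experiment B it stood at 8.99 RPKM in I4 and 9.92 RPKM in H6 with doxycycline, against 6.58 RPKM in I4 and 6.27 RPKM in H6 without it. The treated and untreated levels did not overlap over the 8 groups, and 2.01% of the 10752 genes of at least 1 RPKM had all 4 treated levels above all 4 untreated levels. The authors' deposited table gives folds of 1.25 (q = 0.000185) in I4 and 1.51 (q = 2.05e-14) in H6 in experiment N, and in experiment B of 1.37 (q = 2.65e-07) for I4 and 1.58 (q = 6.09e-12) for H6. Here the larger folds were those of H6, the reverse of EPHA7, and this too was not tested. An antisense gene, AL138689.2, overlaps 1313 of the 5019 merged exon bases of EFNB2, so reads of the pair cannot be told apart in the libraries of experiment N that keep both strands.

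EPHB2, a receptor of ephrin-B ligands that orders the epithelium of intestinal crypts in mice, was the only member called lower throughout. Its gene spans bases 22710839 to 22921500 of chromosome 1, plus strand (GRCh38, GENCODE v29). With doxycycline it was at 1.93 RPKM in I4 and 2.36 RPKM in H6 in experiment N, against 3.21 RPKM in I4 and 3.43 RPKM in H6 without it. In experiment B it was at 1.77 RPKM in I4 and 2.39 RPKM in H6 with doxycycline, against 2.63 RPKM in I4 and 3.17 RPKM in H6 without it. All 4 treated levels lay below all 4 untreated levels, as in 2.42% of the genes of at least 1 RPKM. In the authors' deposited table EPHB2 was 1.66-fold lower in I4 (q = 3.35e-10) and 1.45-fold lower in H6 (q = 2.94e-11) in experiment N, and 1.49-fold lower in I4 (q = 2.34e-10) and 1.33-fold lower in H6 (q = 0.000177) in experiment B. Between 156 and 348 of the genes of at least 1 RPKM had a lower fold, depending on the comparison.

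EFNA1, a lipid-anchored ephrin that binds EPHA2 and is known as a target of tumour necrosis factor signalling, was higher in every comparison and called in 3. With doxycycline it was at 3.35 RPKM in I4 and 4.24 RPKM in H6 in experiment N, against 2.20 RPKM in I4 and 2.55 RPKM in H6 without it. In experiment B it was at 2.71 RPKM in I4 and 3.54 RPKM in H6 with doxycycline, against 2.30 RPKM in I4 and 2.48 RPKM in H6 without it. The authors' deposited table gives folds of 1.52 (q = 0.00728) in I4 and 1.66 (q = 0.000571) in H6 in experiment N, and of 1.43 (q = 0.0334) in H6 and 1.18 (q = 0.484) in I4 in experiment B. All treated levels lay above all untreated levels, as in 2.01% of the genes of at least 1 RPKM. I4 in experiment B was thus the comparison without a call, and its fold was also the smallest.

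**Figure D2:**
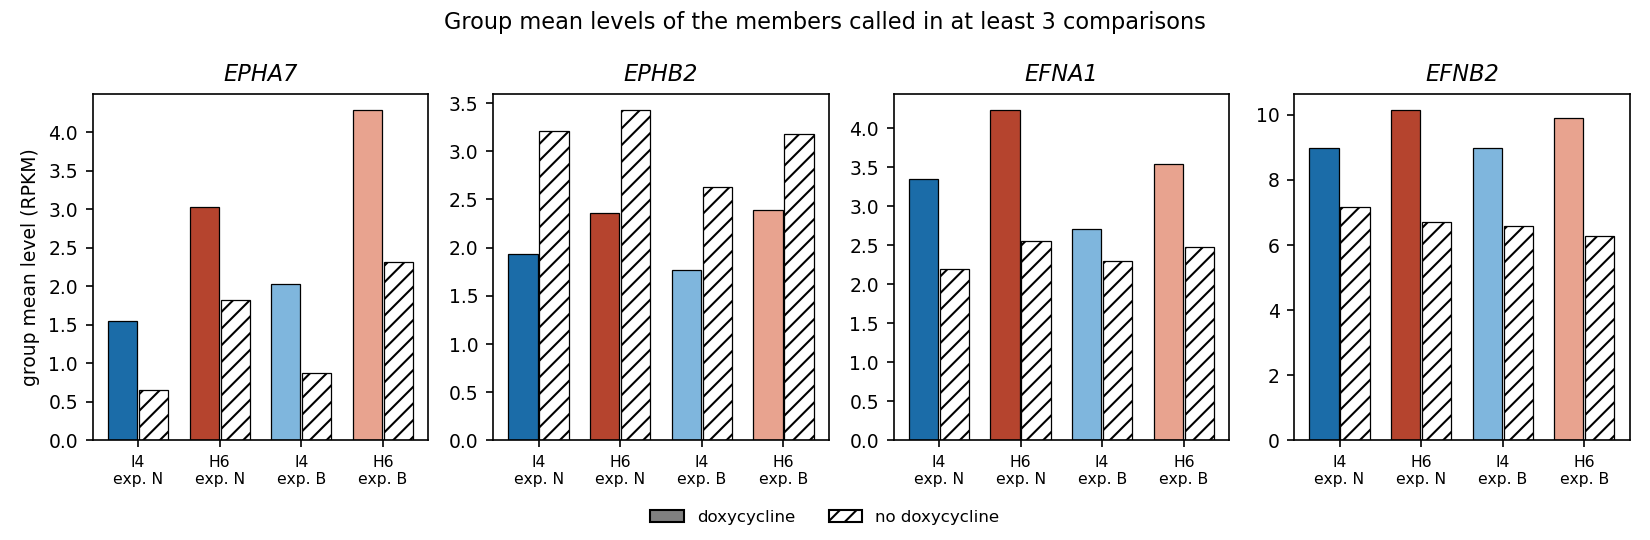
Group mean levels in RPKM (y axis, from 0) of EPHA7, EPHB2, EFNA1 and EFNB2, with doxycycline as coloured bars and without it as hatched bars, for each clone and experiment; the lower bar of each pair is the higher group mean divided by the fold, and no error bars can be drawn. Treated EFNB2 stands at 8.99 to 10.1 RPKM and untreated EFNB2 at 6.27 to 7.18 RPKM, while for EPHB2 the untreated bars are the taller ones.

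EPHA2, a receptor that many epithelial cancers carry in large amounts, was the most abundant gene of the family and was not called in any comparison. With doxycycline it stood at 189.8 RPKM in I4 and 197 RPKM in H6 in experiment N, against 202 RPKM in I4 and 221 RPKM in H6 without it. In experiment B it stood at 114 RPKM in I4 and 132 RPKM in H6 with doxycycline, against 119 RPKM in I4 and 142 RPKM in H6 without it. The authors' deposited table gives it as 1.04-fold to 1.12-fold lower, with q-values of 0.394 to 0.940. By the mean of the 4 listed levels it came first among 52 receptor tyrosine kinase genes with a row, ahead of AXL at 130 RPKM, MET at 101 RPKM and EPHB4 at 30.9 RPKM. This order did not hold in I4 of experiment B, where the authors' deposited table lists MET at 137 RPKM and EPHA2 at 119 RPKM. EPHA2 made up 73.6% to 82.1% of the summed level of the 14 Eph receptor genes over the 8 groups.

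EPHB4, the venous receptor of EFNB2, and EFNB1, a transmembrane ephrin, were the next most abundant members. EPHB4 was at 38.2 RPKM in I4 and 28.1 RPKM in H6 with doxycycline in experiment N, against 42.0 RPKM in I4 and 32.2 RPKM in H6 without it. In experiment B its levels were 26.6 RPKM in I4 and 21.2 RPKM in H6 with doxycycline, against 26.8 RPKM in I4 and 22.6 RPKM in H6 without it. The call was in H6 of experiment N, where the authors' deposited table gives it as 1.15-fold lower (q = 0.0376), and the other q-values were 0.539 to 1.00. EFNB1 ranged from 26.7 to 54.1 RPKM with doxycycline and from 28.4 to 52.5 RPKM without it. Its folds in the authors' deposited table were 1.03 and 1.08 in I4, while it was 1.11-fold and 1.06-fold lower in H6, with q-values of 0.185 to 0.924. EFNB1 made up 46.9% to 64.6% of the summed level of the 8 ephrin genes, and EFNB2 8.83% to 17.4%.

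EFNA5, an ephrin-A that binds EPHA receptors and EPHB2, stood at 1.62 to 2.32 RPKM with doxycycline and 1.65 to 2.45 RPKM without it. Its largest fold in the authors' deposited table was in I4 of experiment N, 1.22-fold lower with q = 0.0870. EPHA4, a receptor of both ephrin classes whose exons overlap the antisense gene AC079834.2, was at 0.396 to 0.620 RPKM with doxycycline and 0.364 to 0.747 RPKM without it, and its q-values in the authors' deposited table were 0.561 to 1.00. EPHA1, the receptor after which the family is named, was close to absent, at 0.05001 to 0.0745 RPKM with doxycycline and 0.0241 to 0.0815 RPKM without it. The higher group mean of EPHA1 rested on about 16.5 to 42.9 reads over 3 libraries, so its folds of up to 2.46 (q = 0.413 in the authors' deposited table) show no change detectable at this depth.

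**Figure D3:**
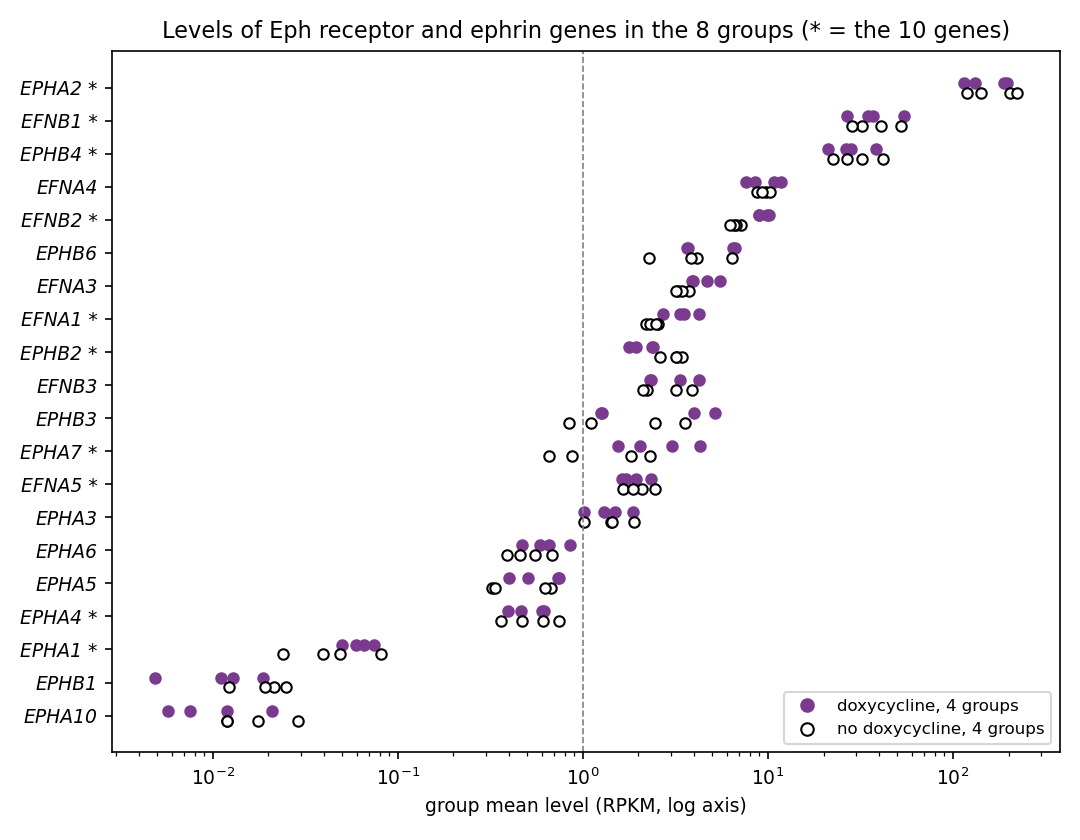
Group mean levels in RPKM (log axis) of the 20 Eph receptor and ephrin genes tested in all 4 comparisons, ordered by mean level, with filled points for the 4 groups with doxycycline and open points for the 4 without; an asterisk marks the 10 genes and the dashed line 1 RPKM. The levels run from 221 RPKM for EPHA2 down to 0.00490 RPKM for EPHB1. The points of EFNB2, EFNA1 and EFNA3 (higher with doxycycline) and of EPHB2 (lower) separate fully by treatment. Of genes of at least 1 RPKM, 2.01% separated upwards and 2.42% downwards.

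The other 12 genes of the family were also in the table, and none was called in all 4 comparisons. Calls among them were all higher, 3 in I4 and 1 in H6 in each experiment. Of all tested genes, 7.18% in I4 and 6.57% in H6 were called higher in experiment N. In experiment B these shares were 7.46% in I4 and 3.63% in H6. With at most 12 genes tested, such counts can be set against these shares only coarsely. EPHB3, a receptor that shares ephrin-B ligands with EPHB2, was called higher in 3. It was at 5.19 RPKM in I4 and 1.25 RPKM in H6 with doxycycline in experiment N, against 3.57 RPKM in I4 and 1.11 RPKM in H6 without it. In experiment B it was at 3.98 RPKM in I4 and 1.27 RPKM in H6 with doxycycline, against 2.46 RPKM in I4 and 0.847 RPKM in H6 without it. The authors' deposited table gives EPHB3 folds of 1.45 (q = 2.68e-05) and 1.62 (q = 3.71e-11) in I4, and of 1.12 (q = 0.815) and 1.499 (q = 0.0229) in H6, for experiments N and B. EPHB3 thus moved opposite to EPHB2 where both were called.

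EPHB6, a family member whose kinase domain lacks activity, was called higher in I4 in both experiments and in H6 in neither. Its folds in the authors' deposited table were 1.62 in I4 in both experiments (q listed as 0 in N and 8.62e-07 in B). In H6 the authors' deposited table gives a fold of 1.01 (q = 1.00) in experiment N and a value 1.06-fold lower (q = 0.975) in experiment B; the difference between the clones was not tested. EFNA3, an ephrin-A, was called higher in experiment N in both clones, with folds of 1.48 (q = 0.00104) in I4 and 1.44 (q = 0.00195) in H6 in the authors' deposited table. In experiment B its folds there were 1.13 (q = 0.654) in I4 and 1.24 (q = 0.340) in H6. Its levels were 3.87 to 5.54 RPKM with doxycycline and 3.17 to 3.75 RPKM without it. They did not overlap, and 2.01% of genes of at least 1 RPKM separated in this direction. Of the 1909 merged exon bases of EFNA3, 853 also belong to AL691442.1, a protein-coding gene on the same strand that overlaps EFNA4 too, so the reads of both ephrins are uncertain. EPHA5 was called higher in I4 of experiment B at 0.506 RPKM with doxycycline, against 0.334 RPKM without it (fold 1.51, q = 0.00967 in the authors' deposited table). EPHA5-AS1 overlaps part of its exons on the opposite strand. The libraries of experiment B were strand-specific, but whether the counting used the strand is not stated.

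EPHA3, EPHA6, EFNA4 and EFNB3 were called in no comparison, at mean levels of 0.642 to 10.2 RPKM. EFNA4, the next ephrin after EFNB1 by mean level, had folds of 1.104 and 1.15 in I4 and H6 of experiment N in the authors' deposited table, and in experiment B its level was lower by a factor of 1.14 in I4 and 1.09 in H6. EPHA8, EPHA10, EPHB1 and EFNA2 stayed at or below 0.0291 RPKM, and EPHA8 and EFNA2 had no q-value in some comparisons. Of the 20 family genes tested in all 4, 9 were called in at least 1 comparison, beside 30.3% of the 15063 genes tested in all 4.

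**Figure D4:**
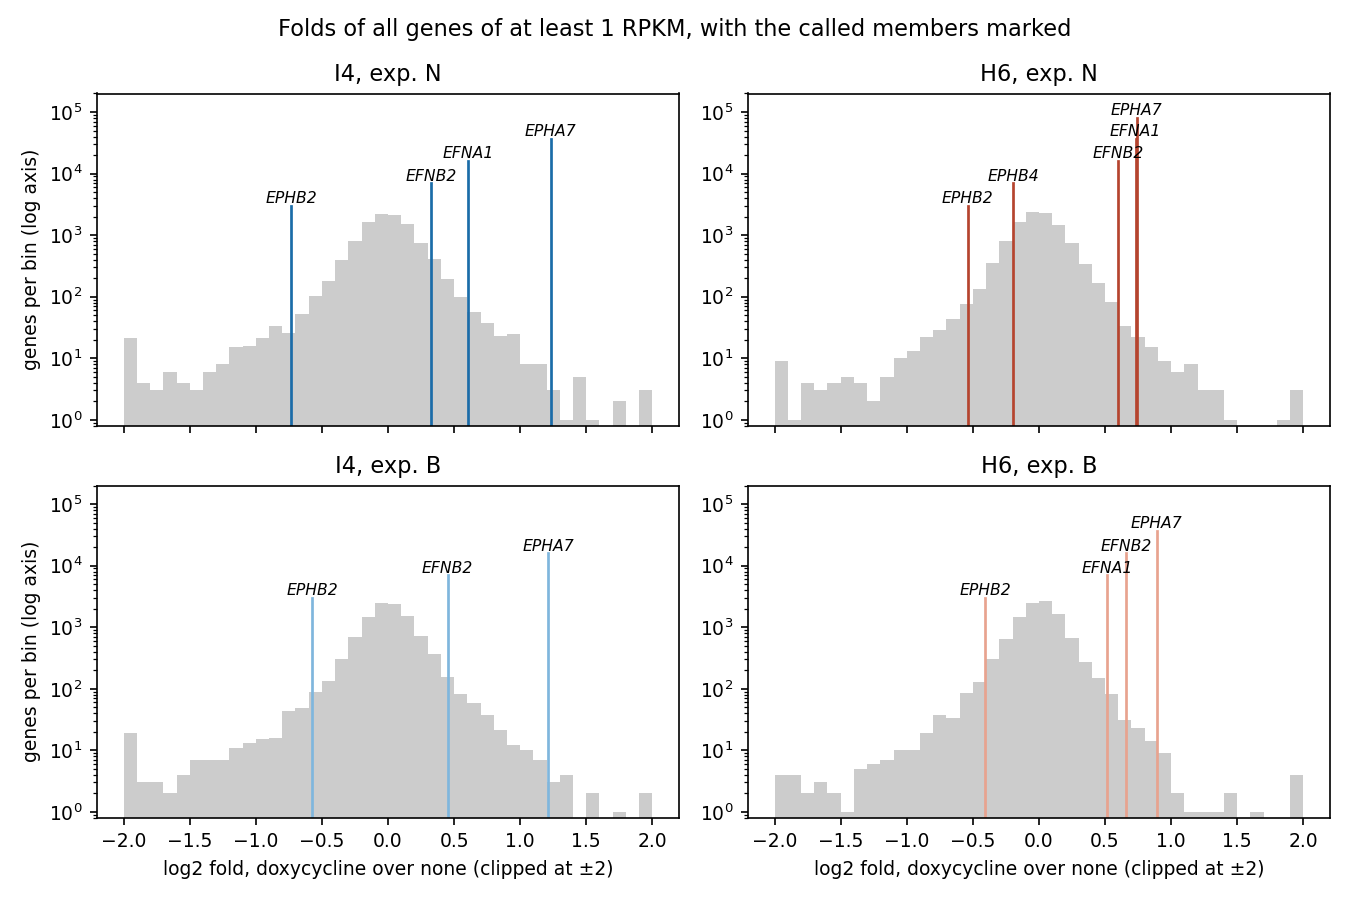
Distribution of log2 folds over all genes of at least 1 RPKM in each comparison (grey, genes per bin of 0.1 on a log axis, folds beyond 2 drawn at the edge), with a coloured line at each member of q-value under 0.05; the height of a line has no meaning. EPHA7 lies in the right tail in every panel, at 0.74 to 1.23, whereas EPHB4 in H6 of experiment N, at -0.20, lies within the bulk of all genes.

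Levels also differed between the clones without doxycycline, most of all for EPHA7 and EPHB3. Untreated H6 had 2.76 and 2.64 times the EPHA7 level of untreated I4 in experiments N and B. Of the 10752 genes of at least 1 RPKM, 98 (0.911%) were at least 2-fold higher in untreated H6 than in untreated I4 in both experiments. With doxycycline the ratio of H6 to I4 for EPHA7 was 1.97 and 2.11. EPHB3 ran the other way, with 0.312 and 0.344 times the I4 level in untreated H6, and 44 genes (0.409%) were at least 2-fold lower in H6 in both experiments. EPHB6 was 1.56 and 1.69 times as high in untreated H6 as in untreated I4, and 0.978 and 0.982 times as high with doxycycline, so its levels in the clones lay closer together in the treated cells. For the other members above 1 RPKM the untreated ratio of H6 to I4 lay between 0.760 for EFNA5 and 1.21 for EPHB2. The clones were not compared in the authors' deposited table, so none of these ratios has a test, and clone differences rest on 1 clone each.

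**Figure D5:**
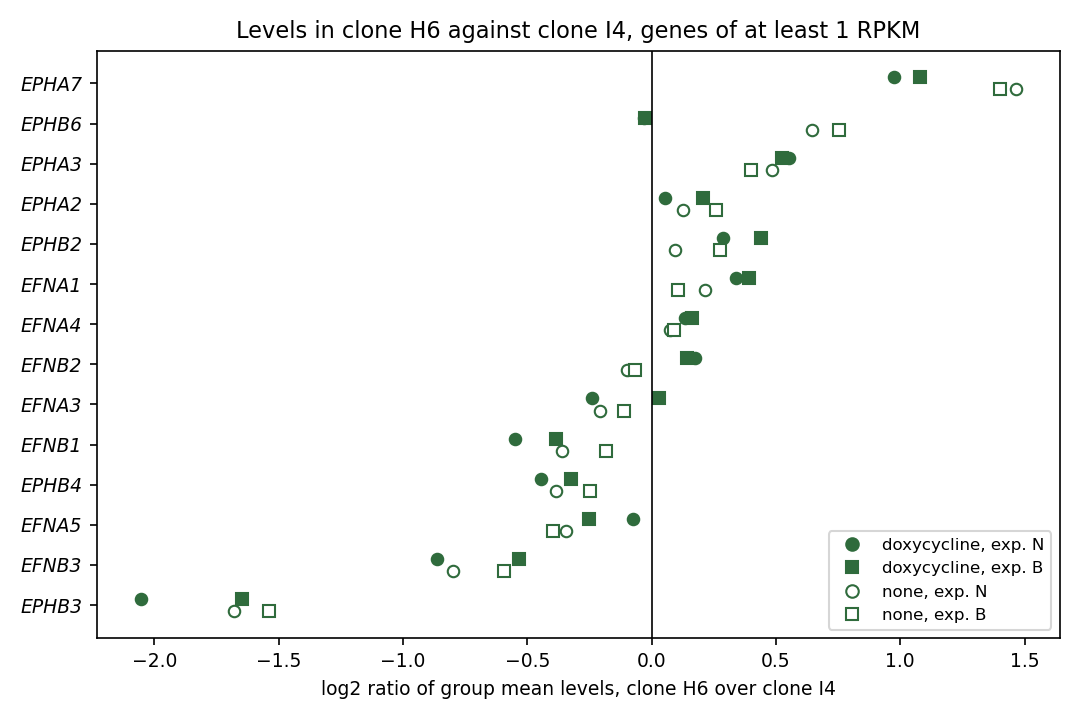
Log2 ratio of group mean levels, clone H6 over clone I4 (x axis), for the 14 family genes with a mean level of at least 1 RPKM, with filled marks for doxycycline, open marks for no doxycycline, circles for experiment N and squares for experiment B. EPHA7 is furthest to the right and EPHB3 furthest to the left in both experiments, and the filled marks of EPHB6 lie near 0.

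The experiments differed in level as well. Untreated EPHA2 in experiment N was 1.70 times its level in experiment B in I4 and 1.55 times in H6, and EPHB4 was 1.57 and 1.43 times and EFNB1 1.63 and 1.44 times as high. Untreated EPHA7 in N was 0.751 and 0.786 times its level in B. Such differences were common: 21.9% of genes of at least 1 RPKM were at least 1.25-fold higher in N than in B in both clones, and 15.4% were at least that much higher in B. The experiments differ in passage, library kit and sequencing centre, which cannot be told apart here.

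Genes that act downstream of Eph receptors were mostly called in no more than some comparisons. Of 7 Src, Abl and focal adhesion kinases, 11 adaptor genes and 9 phosphatases and shedding or turnover enzymes at 1 RPKM or more, none was called in all 4. Of 6 exchange factors and other GTPase regulators, 1 fell in all 4, beside 2.65% of genes of at least 1 RPKM. This gene was SIPA1L1, a regulator of Rap GTPases. The authors' deposited table lists SIPA1L1 as lower by a factor of 1.22 to 1.28. FYN, NGEF, CHN1 and MMP14, described next, were picked for their calls in 3 comparisons once their values had been seen. The share of all genes called in 3 is not given here. Of the genes tested in all 4, 30.3% were called in at least 1, in either direction. FYN, a Src family kinase, was called lower in 3, and the authors' deposited table lists factors of 1.17 (q = 0.0362) and 1.18 (q = 0.0401) in I4 and of 1.16 (q = 0.0374) and 1.04 (q = 1.00) in H6, for experiments N and B. NGEF, an ephexin that acts below EphA receptors, was called higher in 3, with folds of 1.36 and 1.31 in I4 and 1.17 in H6 of experiment N, and the authors' deposited table gives a fold of 1.05 (q = 0.992) for H6 of experiment B. CHN1, a chimaerin that acts on Rac below EPHA4 in mouse neurons, was called lower in 3. The authors' deposited table lists it as lower by a factor of 1.25 to 1.38, and its q-value in H6 of experiment N was 0.0621. MMP14, a membrane protease that can cleave EPHA2, was called lower in 3 as well. The factors in the authors' deposited table were 1.33 (N) and 1.42 (B) in I4, 1.19 in H6 of experiment B, and 1.14 without a call (q = 0.281) in H6 of experiment N.

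Of 16 other receptor tyrosine kinases at 1 RPKM or more, 2 rose in all 4 comparisons and none fell in all 4. Of all genes of at least 1 RPKM, 2.27% were called higher and 2.65% lower in all 4. The authors' deposited table gives folds of 1.19 to 1.28 for ERBB2, a partner of the EGF receptors, and of 1.15 to 1.35 for MET, the receptor of hepatocyte growth factor. Among 20 semaphorins, plexins and neuropilins, which also guide axons and vessels, none rose in all 4. Of these 20, 5 fell in all 4, beside 2.65% of genes of at least 1 RPKM. These were NRP2, PLXNA1, PLXNA2, SEMA4B and SEMA7A, lower by a factor of 1.23 to 1.66 in the authors' deposited table. EPHA7, with folds of 1.67 to 2.35, thus moved further than either kinase that rose. The median log2 fold of the 16 kinases was between -0.03 and 0 in every comparison. For the 20 guidance genes these medians were -0.05, 0.09, 0.03 and -0.03 for I4 and H6 of experiment N and then of experiment B, next to medians of all genes between -0.01 and 0.01. No test compares the set with these lists.

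By the distance between the 4 log2 folds, the genes most like EPHA7 among 526 others of at least 1 RPKM called in all 4 were NEBL (distance 0.23), ADGRF1 (0.24) and PCDH18 (0.24). NEBL encodes an actin-binding protein, ADGRF1 an adhesion receptor coupled to G proteins and PCDH18 a protocadherin. The nearest to EFNB2 were the metalloprotease gene ADAM9 (0.10), HSD17B11 (0.13) and SLC22A23 (0.16). The nearest to EPHB2 were TPCN1 (0.11), SBNO2 (0.13) and the pannexin channel gene PANX1 (0.14). In the authors' deposited table ADAM9 had folds of 1.249 in I4 and 1.42 in H6 in experiment N. In experiment B the authors' deposited table gives it folds of 1.396 in I4 and 1.55 in H6. ADAM9, HSD17B11 and SLC22A23 all shared with EFNB2 the larger fold in H6. Their choice by nearness of these same folds favours such likeness. These distances rest on 4 values a gene and describe likeness of folds, not shared control.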

How the data were processed

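Poly(A)-selected RNA of 23 wells was sequenced, and groups were formed from the clone, experiment and doxycycline given in the labels. The submitters' processing notes name hg38 as the build. No source used here gives the aligner, counting program, annotation, scaling or test. The authors deposited 1 table with 3 values per comparison. Its level is the larger of both group means. The authors named no unit for it, so it was entered here as a score. RPKM was inferred from the values, since levels of barely detected genes times their exon length pile up at the value of 1 read. Its fold is the authors' signed ratio, never between -1 and 1. Its q-value is the adjusted p deposited by the authors, by an unnamed method; 71 to 195 genes per comparison have a q-value listed as 0.

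No model could be fitted without values per library, so calls are the authors' q-value under 0.05 over the whole table. The other group's level assumes that the fold is the ratio of the group means. Depth per library was read from the median single-read step within a window of 1.3 times its lowest value, with merged exon lengths of GENCODE v29 and 3 libraries per group assumed. Names of 21376 rows matched GENCODE v29, whose build is hg38; 27 rows carry dates for names and are not named. Promoter windows come from RefSeq (GRCh38.p14), and all 10 members had an entry.

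The members and gene lists were chosen with earlier results of these data known. Named genes are all family genes, PARG, list genes called in all 4, and the 3 genes nearest to each member called in all 4. Cell type markers are named from a separate list, and KRT19, CDH1, KLK3, KLK2 and PTPRC were picked from it for the text. FYN, NGEF, CHN1, MMP14 (the downstream genes called in 3 comparisons), AXL, the levels compared for overlap and the limits of 2-fold and 1.25-fold on ratios were picked once their values had been seen. The wells of a group are cultures of a single clone, so q-values cover at most the spread between wells. Alternatives were a q-value under 0.01, a fold of at least 1.5, a level of at least 1 RPKM, single clones or experiments, and centred folds. One gene list and 1 marker gene are not reported here. The counting steps were tested on simulated data. Python 3.11.15, pandas 2.3.3 and numpy 2.4.6 were used.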

Additional observations from a re-analysis of the deposited data

How the results depend on the processing

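A limit of 1.5 on the size of the fold moved most counts of called members. Under it EPHA7 was the 1 member left of those called higher in all 4 comparisons, and 0 were left of those called lower in all 4. Within single comparisons it left 1 member higher in I4 of experiment B, and 0 lower in I4 of experiment B, in H6 of experiment B and in H6 of experiment N. With a q-value under 0.01, 1 member stayed lower in H6 of experiment N, where EPHB4 lost its call, and EFNA1 lost its call in H6 of experiment B. The remaining 31 recomputed counts, which include the floor of 1 RPKM and each clone or experiment alone, stayed within 1.5 times the reported ones. Centring the folds on the median of all genes turned no direction of a called member. No library could be left out in turn, because the table holds group means. No paired analysis was possible because the columns carry no replicate numbers. The depth limits EPHA1, EPHA8, EPHA10, EPHB1 and EFNA2, at levels of under 0.1 RPKM.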
